A study of Mus musculus with 9 samples.

Results

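The MHC class I antigen presentation and immunoproteasome genes B2m, H2-K1, H2-D1, Tap1, Tap2, Tapbp, Nlrc5, Psmb8, Psmb9 and Psmb10 were taken from the deposited expression table by their gene names. All 10 were found, as 12 transcripts, among the 16537 genes of the table, and all 10 passed the filter on low counts. Levels came from RNA sequencing of sorted bone marrow cells, in 9 libraries, and all mice were of the inbred strain FVB/NJ. The median LP group held leukemic progenitors (LP) from PML-RAR mice in the phase that the labels call median (n = 3 libraries). The early LP group held such cells from PML-RAR mice in the phase called early (n = 3). The HPC group held hematopoietic progenitor cells of wild-type mice at postnatal day 42 (n = 3). PML-RAR is the fusion of the promyelocytic leukemia protein with a retinoic acid receptor that drives acute promyelocytic leukemia. Sort markers, the promoter that drives PML-RAR, the ages of the PML-RAR mice and the number of animals behind a library are not stated in the labels. Nor is it stated whether replicate libraries came from different animals, so the spread behind the p-values may be technical.

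MHC class I molecules show peptides from inside the cell to CD8 T cells. Proteasomes cut proteins into peptides, the transporter formed by Tap1 and Tap2 moves the peptides into the endoplasmic reticulum, and tapasin, the product of Tapbp, helps to load them onto a heavy chain (H2-K1 or H2-D1) paired with the light chain beta-2 microglobulin (B2m). Interferon is known to raise many of these genes and to bring the immunoproteasome subunits Psmb8, Psmb9 and Psmb10 into the proteasome in place of Psmb5, Psmb6 and Psmb7. Nlrc5 is a transactivator of class I genes.

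In both PML-RAR groups the light chain, both heavy chains, tapasin and Nlrc5 were higher than in HPC. With all 9 libraries no higher call was made for either transporter subunit or for any immunoproteasome subunit. Without HPC replicate 3, Tap1, Tap2 and Psmb9 were called higher in early LP, and Tap1 in median LP, at small changes given below. Of the 10 genes, 5 were called higher and 1 lower in median LP against HPC, while in early LP the counts were 5 and 0 (edgeR's quasi-likelihood test with Benjamini-Hochberg adjustment over all 12837 genes tested, adjusted p under 0.05). The background of calls was broad. In median LP against HPC 36.0% of all tested genes were called higher and 37.7% lower, and in early LP against HPC 35.3% were called higher and 37.9% lower. The groups did not overlap in 7 of the 10 genes in median LP against HPC, where 75.7% of all tested genes had no overlap, and in 5 of the 10 in early LP against HPC, where 74.7% had none. Read against these shares, the counts are no result about the list as a whole, and its genes are described singly. The median log2 change of the 10 genes was 0.39 in median LP and 0.52 in early LP against HPC, beside -0.04 over all tested genes in both comparisons. Both comparisons share the HPC libraries. Summed, the 10 genes took 0.631 ± 0.0124% of the deposited counts in median LP, 0.657 ± 0.0321% in early LP and 0.338 ± 0.0148% in HPC (mean ± SD, n = 3 each). Most of this sum, and of its difference between LP and HPC, came from H2-D1, B2m and H2-K1, so it does not describe the list as a whole.

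Depth was 20.6 to 28.4 M (mega) fragments per library, recovered from the steps of the low values. The PML-RAR groups also differed from HPC in markers of cell type. The summed level of 5 stem and progenitor markers (among them Kit and Cd34) was 235 to 252 CPM (counts per 1 M counts) in median LP, 239 to 249 CPM in early LP and 979 to 1029 CPM in HPC, with 5 of 5 lower in both PML-RAR groups. That of 5 monocyte and macrophage markers was 6845 to 7495 CPM in median LP, 7289 to 7407 CPM in early LP and 748 to 907 CPM in HPC, with 4 of 5 higher and 1 lower in both. That of 8 dendritic cell and class II markers was 6.14 to 6.63 CPM in median LP, 3.54 to 4.33 CPM in early LP and 107 to 143 CPM in HPC. Of the 6 tested among them, 1 was higher and 5 lower in median LP, and 6 were lower in early LP. The progenitor and dendritic sums were lower, and the monocyte sum higher, in every LP library than in any HPC library. The promyelocyte markers, of which 4 of 5 were higher in both, summed to 27970 to 29510 CPM in median LP, 32700 to 38440 CPM in early LP and 13800 to 15870 CPM in HPC. The 6 neutrophil markers, 3 higher and 2 lower in both, summed to 11560 to 12700 CPM in median LP, 8982 to 9243 CPM in early LP and 2987 to 5395 CPM in HPC. Both of these granulocyte sums were higher in every LP library. The 4 megakaryocyte markers, 4 of 4 lower in both, summed to 1.10 to 1.89 CPM in median LP, 1.66 to 2.63 CPM in early LP and 107 to 134 CPM in HPC. The 7 erythroid markers summed to 135 to 209 CPM in median LP, 8.64 to 13.5 CPM in early LP and 1630 to 1676 CPM in HPC. Of the 6 erythroid markers tested, 1 was higher and 5 lower in median LP, and 6 were lower in early LP. No listed marker of any cell type was at 0 in all 6 LP libraries. The part of cell type makeup in the values below was not tested, and in such bulk libraries fewer cells of a type and less RNA per cell cannot be told apart.

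The stretches of sequence below introduce 3 genes called higher against HPC and a pair not called. Those before the starts of H2-K1, H2-D1 and B2m are shown because these genes, called higher, had the highest levels per length of the 10. The stretch shared by Tap1 and Psmb9 is shown because neither gene was called with all 9 libraries. All stretches come from RefSeq on GRCm38.p6, a patched form of mm10, the build of the deposited coordinates. They are the C57BL/6J reference and not FVB/NJ, a strain with other alleles of the heavy chain genes. Each is written 5′ to 3′ on the gene's strand (for the last, that of Tap1) up to the base before the start. RefSeq lists H2-K1 with more than 1 start, and the window is the one before the start of the deposited transcript. Capitals mark matches, on either strand, to the core of an interferon regulatory factor element (AANNGAAA), a CCAAT box (CCAAT), a CRE core (TGACG) and a kB-like motif (GGGNNTTCC).
H2-K1, chr17:34000334-34000583, minus strand: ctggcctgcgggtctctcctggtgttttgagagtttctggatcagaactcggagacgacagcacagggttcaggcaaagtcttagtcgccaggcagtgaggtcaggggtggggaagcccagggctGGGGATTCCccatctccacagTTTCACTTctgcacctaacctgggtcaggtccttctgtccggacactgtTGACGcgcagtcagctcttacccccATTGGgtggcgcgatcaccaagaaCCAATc
H2-D1, chr17:35262844-35263093, plus strand: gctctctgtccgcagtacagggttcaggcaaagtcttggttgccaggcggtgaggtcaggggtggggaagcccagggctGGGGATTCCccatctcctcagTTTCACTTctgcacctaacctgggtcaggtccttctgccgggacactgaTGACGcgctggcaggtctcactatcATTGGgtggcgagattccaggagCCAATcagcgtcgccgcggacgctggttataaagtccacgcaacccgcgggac
B2m, chr2:122147437-122147686, plus strand: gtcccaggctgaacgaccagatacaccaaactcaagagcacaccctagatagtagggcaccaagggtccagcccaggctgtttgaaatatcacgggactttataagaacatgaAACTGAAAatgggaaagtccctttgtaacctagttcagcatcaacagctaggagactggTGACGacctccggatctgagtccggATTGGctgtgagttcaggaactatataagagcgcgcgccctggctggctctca
Tap1 and Psmb9, chr17:34187331-34187555, plus strand: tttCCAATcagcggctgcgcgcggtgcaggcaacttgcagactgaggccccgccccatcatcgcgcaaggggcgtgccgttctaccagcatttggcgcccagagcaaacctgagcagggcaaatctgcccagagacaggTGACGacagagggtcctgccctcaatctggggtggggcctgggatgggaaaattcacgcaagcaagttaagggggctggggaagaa
The windows of H2-K1 and H2-D1 were near copies, with 172 identical bases and 1 gap in 192 aligned columns (89.6%). Both held all 4 motifs in 1 order, kB-like, interferon element, CRE core and CCAAT, which 33 of 32851 RefSeq windows of 250 bases held in any order (0.1005%). As near copies, the windows of H2-K1 and H2-D1 do not count as separate matches. The kB-like match began 125 bases before the deposited start in H2-K1 and 171 before it in H2-D1. The interferon element core began 104, 150 and 137 bases before the start in H2-K1, H2-D1 and B2m. The window of B2m held the interferon element core, the CRE core and CCAAT but not the kB-like letters. Those 3 motifs, with or without the kB-like one, were found together in 355 of all windows (1.08%). The 225 bases between Tap1 and Psmb9, which are read in opposite directions, held a CCAAT box and a CRE core. Singly, the interferon element core was found in 21.3% of all windows, CCAAT in 33.85%, the CRE core in 17.8% and the kB-like motif in 4.98%. A window was at hand for 8 of the 10 genes. The core was found in 3 of these 8, CCAAT in 6, the CRE core in 5 and the kB-like motif in 2. Tapbp held CCAAT only, and Psmb8 and Psmb10 held none of the 4. These matches describe letters in a window, and binding was not measured.

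B2m, on chromosome 2 (122147687 to 122153082), encodes the light chain that every classical class I molecule needs. Its level was 1927, 1977 and 1953 CPM in median LP, 1998, 1755 and 1913 CPM in early LP, and 901, 888 and 972 CPM in HPC. Here and below, CPM of single genes are taken after TMM, edgeR's scaling of library sizes, unlike the marker sums above. All 6 LP libraries lay far above the 3 HPC libraries, and the 2 LP groups overlapped. Its log2 fold change was 1.08 (SE 0.07, adjusted p = 7.34e-08) in median LP and 1.04 (SE 0.07, adjusted p = 1.13e-07) in early LP against HPC, or 2.12-fold and 2.05-fold. Patl2 and Trim69, which the table lists under the same locus, had FPKM (fragments per kilobase and 1 M fragments) of at most 0.0864 and 0.0481.

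H2-D1, the D region heavy chain on chromosome 17 (35263094 to 35267497), had the largest changes of the 10 genes. Its level was 3135, 3092 and 2985 CPM in median LP, 3294, 3723 and 3365 CPM in early LP, and 1238, 1191 and 1291 CPM in HPC. The lowest LP library exceeded the highest HPC library by more than the range within any group. The log2 fold change was 1.31 (SE 0.08, adjusted p = 2.21e-08) in median LP and 1.48 (SE 0.08, adjusted p = 7.70e-09) in early LP against HPC, or 2.48-fold and 2.79-fold. H2-L is listed under the same locus, and reads of the near-identical heavy chain genes cannot be told apart well. The FPKM ratio of H2-L to H2-D1 was 0.0645 ± 0.0103 in median LP, 0.0909 ± 0.0246 in early LP and 0.0835 ± 0.0125 in HPC (SD, n = 3 each).

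H2-K1, the K region heavy chain (chromosome 17, 33996012 to 34000333 as deposited), lies at the far end of the same region. Its level was 811, 737 and 706 CPM in median LP, 749, 873 and 850 CPM in early LP, and 353, 362 and 418 CPM in HPC. The LP groups overlapped each other, and neither overlapped HPC. In edgeR's test the log2 fold change was 0.99 (SE 0.09, adjusted p = 1.05e-06) in median LP and 1.13 (SE 0.09, adjusted p = 3.52e-07) in early LP against HPC, or 1.99-fold and 2.18-fold. The heavy chains H2-K1, H2-D1 and H2-L summed to 2019 ± 181 FPKM in median LP, 2324 ± 213 FPKM in early LP and 891 ± 63.1 FPKM in HPC (SD, n = 3 each). How the placement of FVB/NJ reads on the C57BL/6J alleles bears on the levels was not tested.

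**Figure D1:**
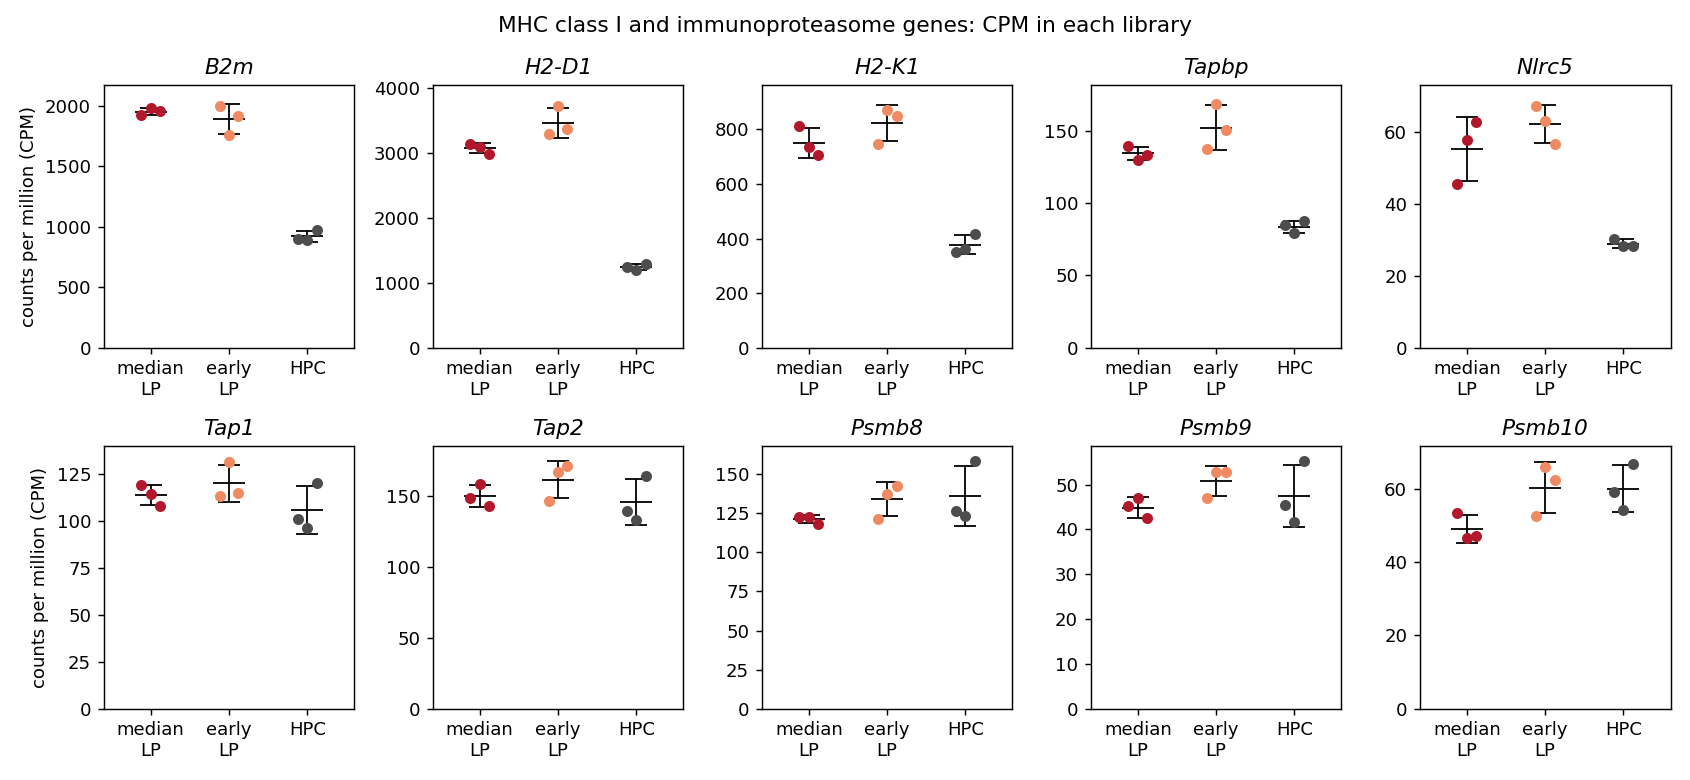
Level in CPM (counts per 1 M counts after TMM scaling of library sizes, axes from 0) of each of the 10 genes in the 9 libraries. Points are libraries, and bars are the mean and SD of the 3 libraries of a group. In the upper row (B2m, H2-D1, H2-K1, Tapbp and Nlrc5) all 6 LP libraries sit above all 3 HPC libraries. Across both rows HPC replicate 3 is the highest HPC library for 9 of the 10 genes, all but Nlrc5.

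Tapbp (chromosome 17, 33919478 to 33929290) encodes tapasin, which holds empty class I molecules at the transporter while peptide is loaded. Its level was 139, 130 and 134 CPM in median LP, 137, 169 and 151 CPM in early LP, and 84.6, 79.3 and 87.4 CPM in HPC. The LP groups did not overlap HPC. On the log2 scale Tapbp changed by 0.68 (SE 0.08, adjusted p = 9.99e-06) in median LP and 0.86 (SE 0.08, adjusted p = 1.33e-06) in early LP against HPC, or 1.60-fold and 1.82-fold. Of its 2 listed transcripts, NM_001025313 held 58.0 ± 0.786% of the Tapbp FPKM in median LP, 59.2 ± 2.30% in early LP and 57.2 ± 6.07% in HPC (SD, n = 3 each), which differed between groups by less than the spread between HPC libraries.

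Nlrc5 (chromosome 8, 94434335 to 94527272) had the lowest level per length (FPKM) of the 10 genes. Its level was 45.4, 57.6 and 62.6 CPM in median LP, 67.0, 63.0 and 56.6 CPM in early LP, and 30.3, 28.2 and 28.4 CPM in HPC. Median LP replicate 1 was the lowest LP library and still stood above every HPC library. On the log2 scale Nlrc5 changed by 0.93 (SE 0.11, adjusted p = 9.58e-06) in median LP and 1.10 (SE 0.11, adjusted p = 2.20e-06) in early LP against HPC, or 1.91-fold and 2.15-fold. Chromosome 8 as a whole moved the same way. Its 706 tested genes had a median log2 change of 0.51 in median LP and 0.53 in early LP against HPC, and 67.85% and 66.86% of them were called higher. The part of this chromosome-wide shift in the Nlrc5 value was not tested. Psmb10, on the same chromosome, was not called higher in either comparison. The other genes of the list lie on chromosomes 17 and 2, whose tested genes had medians of -0.10 and -0.09 in median LP and -0.08 and -0.10 in early LP against HPC.

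Neither transporter subunit was called in either PML-RAR group against HPC. Tap1 (chromosome 17, 34187556 to 34197225) had 119, 114 and 108 CPM in median LP, 114, 132 and 115 CPM in early LP, and 101, 96.5 and 121 CPM in HPC. Tap2 (34204479 to 34216321) had 149, 158 and 143 CPM in median LP, 147, 167 and 171 CPM in early LP, and 139, 133 and 164 CPM in HPC. For both genes HPC replicate 3 lay above the other HPC libraries and inside the range of the LP libraries, so the groups overlapped. The log2 fold change of Tap1 was 0.10 (SE 0.09, adjusted p = 0.326) in median LP and 0.18 (SE 0.09, adjusted p = 0.0965) in early LP against HPC, with 95% intervals of 0.935 to 1.24-fold and 0.985 to 1.30-fold. That of Tap2 was 0.04 (SE 0.09, adjusted p = 0.671) and 0.15 (SE 0.09, adjusted p = 0.151), with intervals of 0.899 to 1.18-fold and 0.968 to 1.27-fold. Both genes had intervals that end below the fold changes of B2m, H2-D1, H2-K1, Tapbp and Nlrc5. Without HPC replicate 3 the log2 change of Tap1 was 0.20 (adjusted p = 0.0325) in median LP and 0.28 (adjusted p = 0.0066) in early LP, and that of Tap2 was 0.24 (adjusted p = 0.0147) in early LP. Ratios of a heavy chain to a transporter subunit within a library were higher in both LP groups than in HPC. These ratios were not planned, and they restate the changes given above. The FPKM ratio of H2-D1 to Tap2 was 27.6 ± 1.07 in median LP, 28.9 ± 2.18 in early LP and 11.5 ± 0.793 in HPC, and that of H2-K1 to Tap1 was 10.6 ± 0.311, 11.2 ± 0.643 and 5.68 ± 0.299 (SD, n = 3 each, no test made). The transcript NM_013683 held 97.6 ± 0.820% of the Tap1 FPKM in median LP, 98.2 ± 0.599% in early LP and 98.2 ± 1.21% in HPC.

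**Figure D2:**
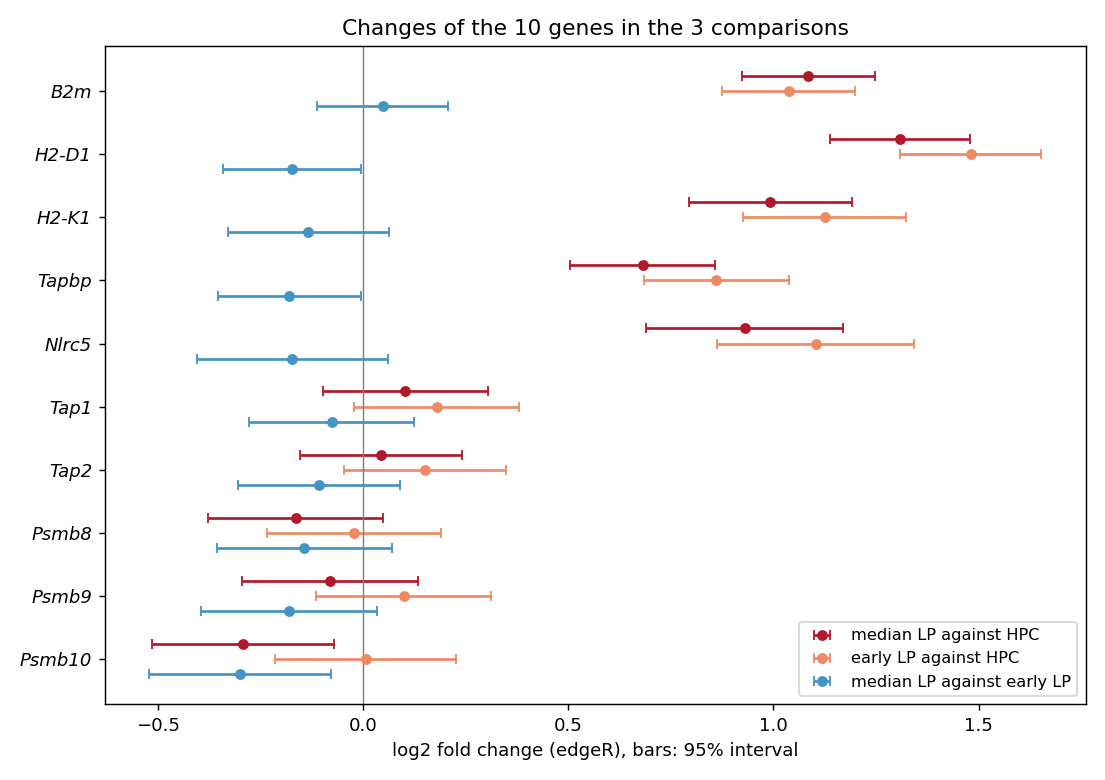
Log2 fold change from edgeR (horizontal axis, points) with its 95% interval (bars) for each of the 10 genes in median LP against HPC, early LP against HPC and median LP against early LP. In the HPC comparisons B2m, H2-D1, H2-K1, Tapbp and Nlrc5 lie between 0.68 and 1.48 with intervals above 0, and the other 5 genes lie between -0.29 and 0.18.

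No immunoproteasome subunit was called higher in a PML-RAR group than in HPC. Psmb8, the inducible counterpart of Psmb5, had 123, 123 and 118 CPM in median LP, 122, 138 and 143 CPM in early LP, and 126, 123 and 158 CPM in HPC. Psmb9, the counterpart of Psmb6, had 45.2, 47.0 and 42.5 CPM in median LP, 46.9, 52.8 and 52.8 CPM in early LP, and 45.4, 41.7 and 55.2 CPM in HPC. Early LP overlapped HPC for both genes, and median LP overlapped HPC for Psmb9 and lay just below it for Psmb8. The log2 fold change of Psmb8 was -0.16 (SE 0.10, adjusted p = 0.146) in median LP and -0.02 (SE 0.10, adjusted p = 0.85) in early LP, with 95% intervals of 0.770 to 1.03-fold and 0.850 to 1.14-fold. That of Psmb9 was -0.08 (SE 0.10, adjusted p = 0.471) and 0.10 (SE 0.10, adjusted p = 0.373), with intervals of 0.815 to 1.10-fold and 0.924 to 1.24-fold. Psmb8 was called lower in median LP with upper quartile scaling (-0.25, adjusted p = 0.0467) and with the length slope of each library as a covariate (-0.18, adjusted p = 0.00637). Without HPC replicate 3, Psmb9 had a log2 change of 0.22 in early LP (adjusted p = 0.0197).

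Psmb10 (chromosome 8, 105935728 to 105938392), the inducible counterpart of Psmb7, was the single gene of the list called lower, in median LP against HPC. Its level was 53.4, 46.5 and 47.0 CPM in median LP, 52.5, 65.9 and 62.4 CPM in early LP, and 59.0, 54.2 and 66.8 CPM in HPC. The median LP libraries all lay below the HPC libraries, the nearest pair being 53.4 and 54.2 CPM, while early LP and HPC overlapped. The log2 fold change was -0.29 (SE 0.10, adjusted p = 0.0207) in median LP, a 95% interval of 0.700 to 0.952-fold, and 0.01 (SE 0.10, adjusted p = 0.957) in early LP, an interval of 0.862 to 1.17-fold. The call in median LP was lost without HPC replicate 3 (-0.21, adjusted p = 0.0738), without median LP replicate 2 (-0.25, adjusted p = 0.0814) and without median LP replicate 3 (-0.27, adjusted p = 0.0644).

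HPC replicate 3 stood apart from the other HPC libraries in how levels ran with transcript length. The slope of log2 CPM on log2 length across genes was 0.199 in HPC replicate 3, 0.376 and 0.396 in HPC replicates 1 and 2, and 0.228 to 0.337 in the LP libraries. HPC replicate 3 had the highest HPC level for 9 of the 10 genes, for 63.6% of the 7163 tested genes under 3000 bases, for 20.5% of the longer ones and for 44.5% of all. Nlrc5, the exception, has the longest transcript of the list. Without this library the genes called higher numbered 8 of 10 in early LP against HPC, with Tap1, Tap2 and Psmb9 added at log2 changes of 0.28, 0.24 and 0.22, and 6 of 10 in median LP against HPC, with Tap1 added. B2m, H2-D1, H2-K1, Tapbp and Nlrc5 were called with and without it. Over all tested genes 36.3% were called higher in median LP and 36.0% in early LP without it.

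Ratios of each immunoproteasome subunit to its standard counterpart, taken within a library and so free of library scaling, moved in different directions. The FPKM ratio of Psmb8 to Psmb5 was 0.625, 0.655 and 0.671 in median LP, 0.647, 0.689 and 0.685 in early LP, and 1.03, 0.991 and 0.997 in HPC. All LP libraries lay below all HPC libraries. The log2 ratio was different from that in HPC by -0.63 in median LP and -0.58 in early LP (two-sided exact permutation test, p = 0.1 for each, the smallest that 3 against 3 libraries allow, and 0.225 adjusted over the 9 ratio tests). Psmb8 itself was not called, while Psmb5, a standard catalytic subunit, had 116 ± 6.2 CPM in median LP, 124 ± 6.8 CPM in early LP and 83.6 ± 13 CPM in HPC (SD, n = 3 each). Psmb5 rose by 0.47 (SE 0.10, adjusted p = 0.00114) in median LP and 0.57 (SE 0.10, adjusted p = 0.000282) in early LP on the log2 scale in edgeR's test.

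The ratio of Psmb9 to Psmb6 went the other way, at 0.742, 0.828 and 0.733 in median LP, 0.782, 0.767 and 0.762 in early LP, and 0.709, 0.676 and 0.620 in HPC. The LP and HPC libraries did not overlap, and the log2 ratio differed by 0.20 in median LP and 0.21 in early LP from HPC (exact permutation p = 0.1 for each, 0.225 adjusted over the 9 tests). Psmb6 had a log2 change of -0.33 (adjusted p = 0.0247) in median LP and -0.12 (adjusted p = 0.395) in early LP. The call in median LP was lost without HPC replicate 3 (-0.15, adjusted p = 0.0688), median LP replicate 2 (-0.30, adjusted p = 0.0735) or median LP replicate 3 (-0.32, adjusted p = 0.0565). With the length slope covariate Psmb6 was called lower in early LP too (-0.23, adjusted p = 0.00128). The ratio of Psmb10 to Psmb7 was 0.412, 0.348 and 0.354 in median LP, 0.361, 0.451 and 0.443 in early LP, and 0.377, 0.342 and 0.334 in HPC, and the groups overlapped (differences of 0.08 and 0.25, exact permutation p = 0.5 and 0.2). Psmb7 fell by 0.30 (adjusted p = 0.00449) in median LP and by 0.22 (adjusted p = 0.0229) in early LP, and the early LP change was -0.12 (adjusted p = 0.0585) without HPC replicate 3. The early LP call of Psmb7 was also lost without any 1 of the early LP libraries (-0.21 to -0.22, adjusted p of 0.0514 to 0.0609). Summed over the 6 subunits, the immunoproteasome subunits held 36.9 ± 0.264% of the FPKM in median LP, 38.0 ± 1.11% in early LP and 39.3 ± 0.987% in HPC (SD, n = 3 each).

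**Figure D3:**
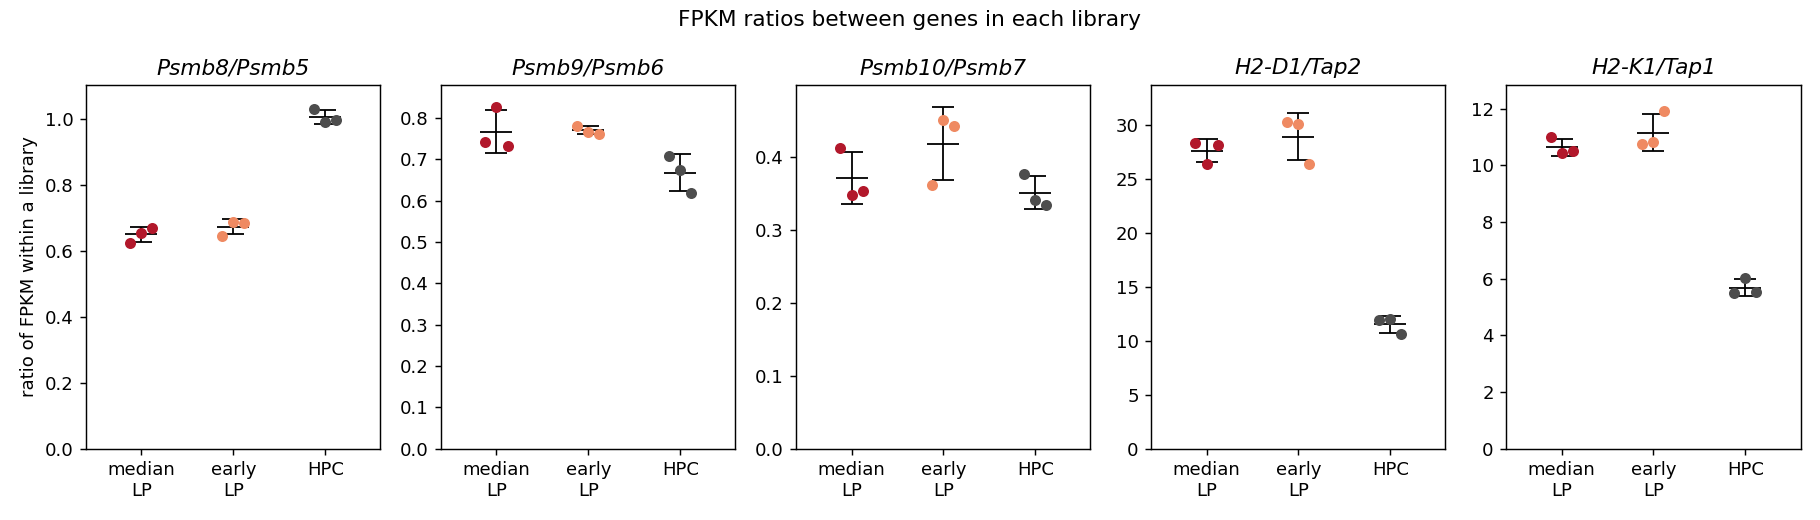
Ratio of the FPKM of a pair of genes within each library (vertical axes from 0), with points for the 9 libraries and bars for the mean and SD of 3 libraries. Psmb8/Psmb5 is lower in all 6 LP libraries (0.625 to 0.689) than in the HPC libraries (0.991 to 1.03), Psmb10/Psmb7 overlaps, and H2-D1/Tap2 and H2-K1/Tap1 are higher in all LP libraries.

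Levels per length (FPKM) placed the 10 genes in nearly the same order in each group, whatever their change. B2m was the highest, at 2557 ± 41.2 FPKM in median LP (rank 12 of 16537 genes), 2545 ± 136 FPKM in early LP (rank 19) and 1279 ± 88.0 FPKM in HPC (rank 77). H2-D1 followed at 1526 ± 111, 1729 ± 134 and 635 ± 32.0 FPKM in median LP, early LP and HPC, and H2-K1 at 394 ± 49.6, 436 ± 45.4 and 202 ± 22.9 FPKM. Psmb8 came next in every group, at 104 ± 7.19, 117 ± 12.2 and 121 ± 17.2 FPKM, and the libraries of these 4 genes did not overlap within any group. The light chain and the heavy chains thus stood above every processing and transport gene of the 10. Below them Psmb9, Tap2, Tapbp, Psmb10 and Tap1 ran in median LP at 61.3, 55.3, 47.6, 42.9 and 37.0 FPKM, each overlapping its neighbour. In early LP they stood at 72.1, 60.1, 54.1, 53.3 and 39.1 FPKM, where the last alone was separate from the gene above it. In HPC the order was Psmb9, Tap2, Psmb10, Tap1 and Tapbp, at 68.8, 55.5, 53.5, 35.7 and 30.9 FPKM, with overlaps among the first 3 and between the last 2. Nlrc5 was lowest, at 5.83 ± 0.762 FPKM in median LP (rank 7791), 6.68 ± 0.422 in early LP (rank 7435) and 3.24 ± 0.130 in HPC (rank 9095).

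Between the PML-RAR phases none of the 10 genes was called by edgeR at an adjusted p under 0.05, and 3 had an unadjusted p under 0.05. DESeq2 called none either. Across all tested genes 1.48% were called higher and 0.997% lower in median LP against early LP (3.02% and 2.28% without HPC replicate 3). The estimates of 9 of the 10 genes were below 0, with a median of -0.16 beside 0 over all tested genes. H2-D1 was the single gene whose groups did not overlap (26.1% of all tested genes had none), at 2985 to 3135 CPM in median LP and 3294 to 3723 CPM in early LP, with a log2 change of -0.17 (adjusted p = 0.288). Psmb10 had a log2 change of -0.30 (adjusted p = 0.161) and Tapbp -0.18 (adjusted p = 0.288). B2m had 0.05 (adjusted p = 0.779).

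Of the 10 genes, 7 lie within 1.35 Mb of chromosome 17 (33919478 to 35267497 on mm10), from Tapbp to H2-D1, so their changes could be set beside those of their neighbours. In median LP against HPC 28 of the 79 tested genes there were called higher and 32 lower, and in early LP 26 were higher and 31 lower. Without the 7 genes of the list, 25 of 72 were higher and 32 lower in median LP, with a median log2 change of -0.18, and 23 were higher and 31 lower in early LP, with a median of -0.09. Of all tested genes 36.0% were higher and 37.7% lower in median LP, and 35.3% and 37.9% in early LP. No count is read as a result about the region. Within the region the genes that changed and those that were not called lay close together. Tap1, Tap2, Psmb8 and Psmb9 form an unbroken cluster from 34182030 to 34216321 with log2 changes between -0.16 and 0.18, while Tapbp and H2-K1 before it and H2-D1 beyond it lay between 0.68 and 1.48.

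**Figure D4:**
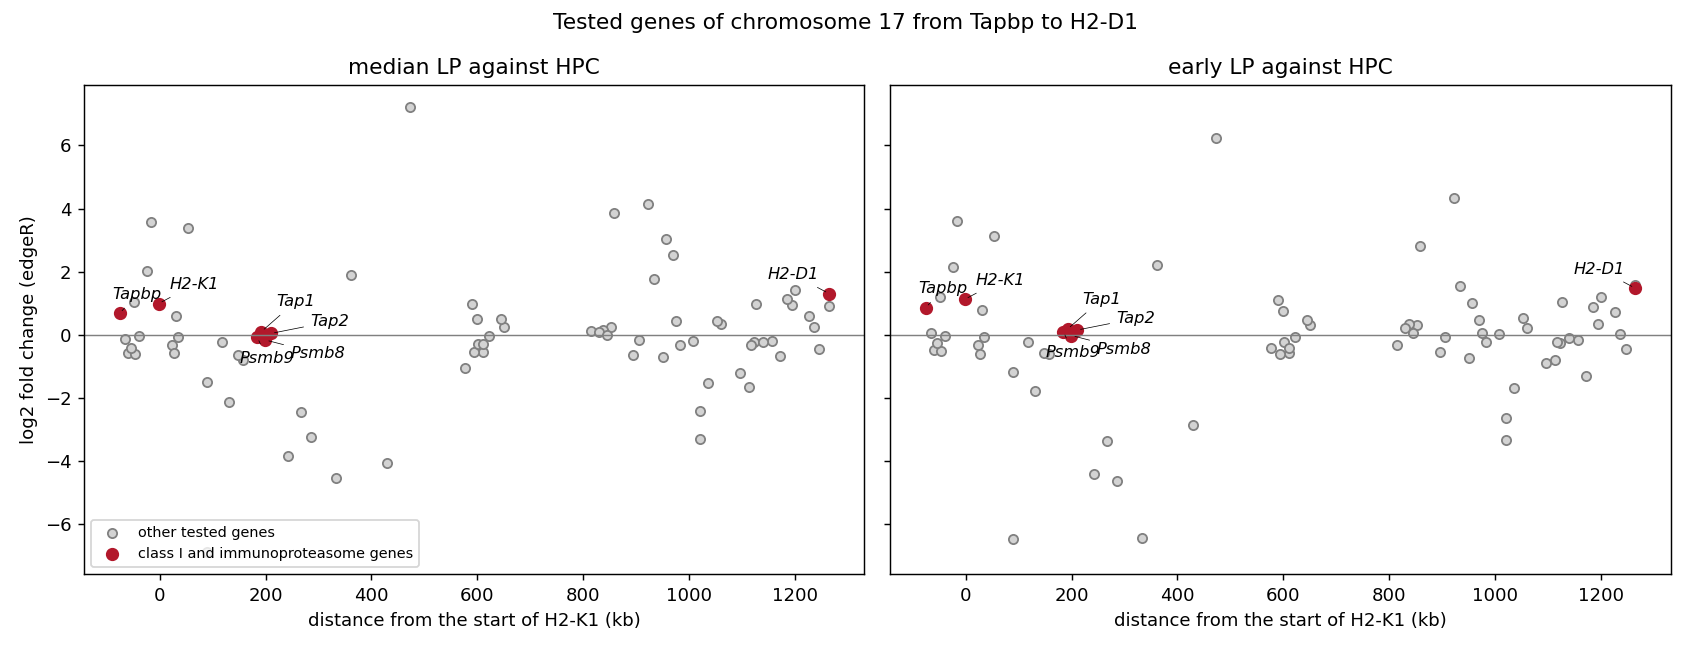
Log2 fold change from edgeR (vertical axis) of the 79 tested genes of chromosome 17 from Tapbp to H2-D1 by distance from the start of H2-K1 in kb (horizontal axis), for median LP against HPC on the left and early LP against HPC on the right. The 7 genes of the list are red and labelled, the other tested genes grey, and red points lie between -0.16 and 1.48 among neighbours that spread in both directions.

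Genes around the pathway were counted in 7 further lists. Their counts stand beside the shares over all tested genes, 36.0% higher and 37.7% lower in median LP and 35.3% higher and 37.9% lower in early LP, and no count is read as a result about its list. Of 15 genes of class I loading and peptide trimming, 8 were higher and 4 lower in median LP, and 7 were higher and 3 lower in early LP, than in HPC, with median log2 changes of 0.16 and 0.11. Calr, a chaperone of the peptide loading complex, had 5048 ± 213 CPM in median LP, 5295 ± 337 CPM in early LP and 1916 ± 128 CPM in HPC (SD, n = 3 each) and rose by 1.40 and 1.47 on the log2 scale. Pdia3, the disulfide isomerase of that complex, rose by 0.94 and 1.00 in median and early LP, Hspa5, a general chaperone of the endoplasmic reticulum, by 1.51 and 1.66, and Uggt1, which checks glycoprotein folding, by 0.91 and 0.97. Hspa5 and Uggt1 act on many proteins besides class I. Tapbpl, a tapasin-related editor of class I peptides named after its values were seen, fell by 0.84 and 0.50.

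Among 21 tested non-classical and related class I heavy chains, of 23 listed, 10 were higher and 6 lower in both comparisons, with median log2 changes of 0.08 in median LP and 0.39 in early LP (0.45 and 0.55 without HPC replicate 3). H2-Q7, a Q region gene that shares its listed locus, rose by 1.47 and 1.40, and H2-Bl by 1.54 and 1.60. H2-T24 fell by 3.95 and 4.62. H2-T3, the thymus leukemia antigen, was at 0 in all 3 median LP libraries, at least 63.2-fold lower than in HPC (against a floor of 3 fragments over the group), and fell by 4.94 in early LP. With H2-T3 at that bound the list's median in median LP was the same. H2-L, named after its values were seen, rose by 0.91 and 1.58. Reads of these near-identical genes may be split among them.

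Of 14 genes of the 20S core of the proteasome, 1 was higher and 9 lower in median LP against HPC, and 2 were higher and 6 lower in early LP, with median log2 changes of -0.29 and -0.17. Without HPC replicate 3 the counts were 1 higher and 7 lower in median LP, and 3 and 4 in early LP, where 37.7% and 37.9% of all tested genes were lower. Psmb3 fell by 0.49 and 0.38, Psmb1 by 0.41 and 0.27 and Psma3 by 0.40 and 0.37 in median and early LP. These are non-catalytic subunits, and Psmb5 was among the genes that rose. Of 10 activators and assembly factors 1 was higher and 6 lower in both comparisons, with medians of -0.42 and -0.36. Psme1, a subunit of the interferon-inducible activator PA28, fell by 0.83 and 0.65, Psme3, its nuclear relative, by 0.44 and 0.53, Psmf1, an inhibitor of the proteasome, by 0.65 and 0.58, and Psmg2, an assembly chaperone, by 0.45 and 0.54. Psme4, the activator PA200, rose by 0.94 and 0.93. Psme2, the partner of Psme1 in PA28, was named after its values were seen. It was not called in edgeR's test (-0.13 in both comparisons, adjusted p = 0.183 and 0.191).

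Of 24 known regulators of class I genes, 8 were higher and 11 lower in median LP, and 8 were higher and 12 lower in early LP. Irf8, an interferon regulatory factor of monocytes and dendritic cells, fell by 4.67 and 4.88, at 4.31 to 5.45 CPM in median LP, 3.79 to 4.77 CPM in early LP and 105 to 130 CPM in HPC. Socs1, an inhibitor of interferon signalling, rose by 3.04 and 2.94. Ezh2 and Eed, subunits of the repressive complex PRC2, fell by 0.87 and 0.86 and by 0.47 and 0.55. Named after their values were seen, Irf1, an activator of class I promoters, fell by 0.66 and 0.78, Irf9, another interferon regulatory factor, by 1.09 and 1.18, and Rfx5, a subunit of the factor through which Nlrc5 reaches promoters, by 0.41 and 0.38. Rfxank and Rfxap, the other subunits of that factor, rose by 0.90 and 0.86 and by 0.30 and 0.28. Both were also named after their values were seen. Ciita, the class II relative of Nlrc5 and likewise named after its values were seen, averaged 0.187 CPM in median LP, 0.0418 CPM in early LP and 0.948 CPM in HPC.

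Of 8 tested interferon receptors and kinases, of 10 listed, 5 were higher and 2 lower in both comparisons. Ifngr1, the binding chain of the interferon gamma receptor, rose by 0.77 and 0.60 in median and early LP, and Ifnar1 and Ifnar2, the chains of the type I receptor, by 0.46 and 0.49 and by 0.47 and 0.30. The kinase Jak2 fell by 0.49 and 0.61, and the receptor chain Il10rb by 0.73 and 0.87. Of 34 tested interferon-stimulated genes, of 36 listed, 14 were higher and 11 lower in median LP and 13 higher and 14 lower in early LP, with medians of -0.02 and -0.11. Gbp3, a guanylate-binding GTPase, rose by 2.04 and 2.20, Ifit2, an antiviral RNA-binding protein, by 2.03 and 1.99, and Oas1a, an oligoadenylate synthetase, by 1.40 and 1.27. Ifi47, an interferon gamma-inducible GTPase, fell by 1.82 and 1.76. The chemokine Cxcl10, whose listed locus is shared with another gene, had the largest change of the list, at 50.3 to 115 CPM in median LP, 26.5 to 28.1 CPM in early LP and 0.377 to 0.741 CPM in HPC, and it was called higher in both PML-RAR groups.

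**Figure D5:**
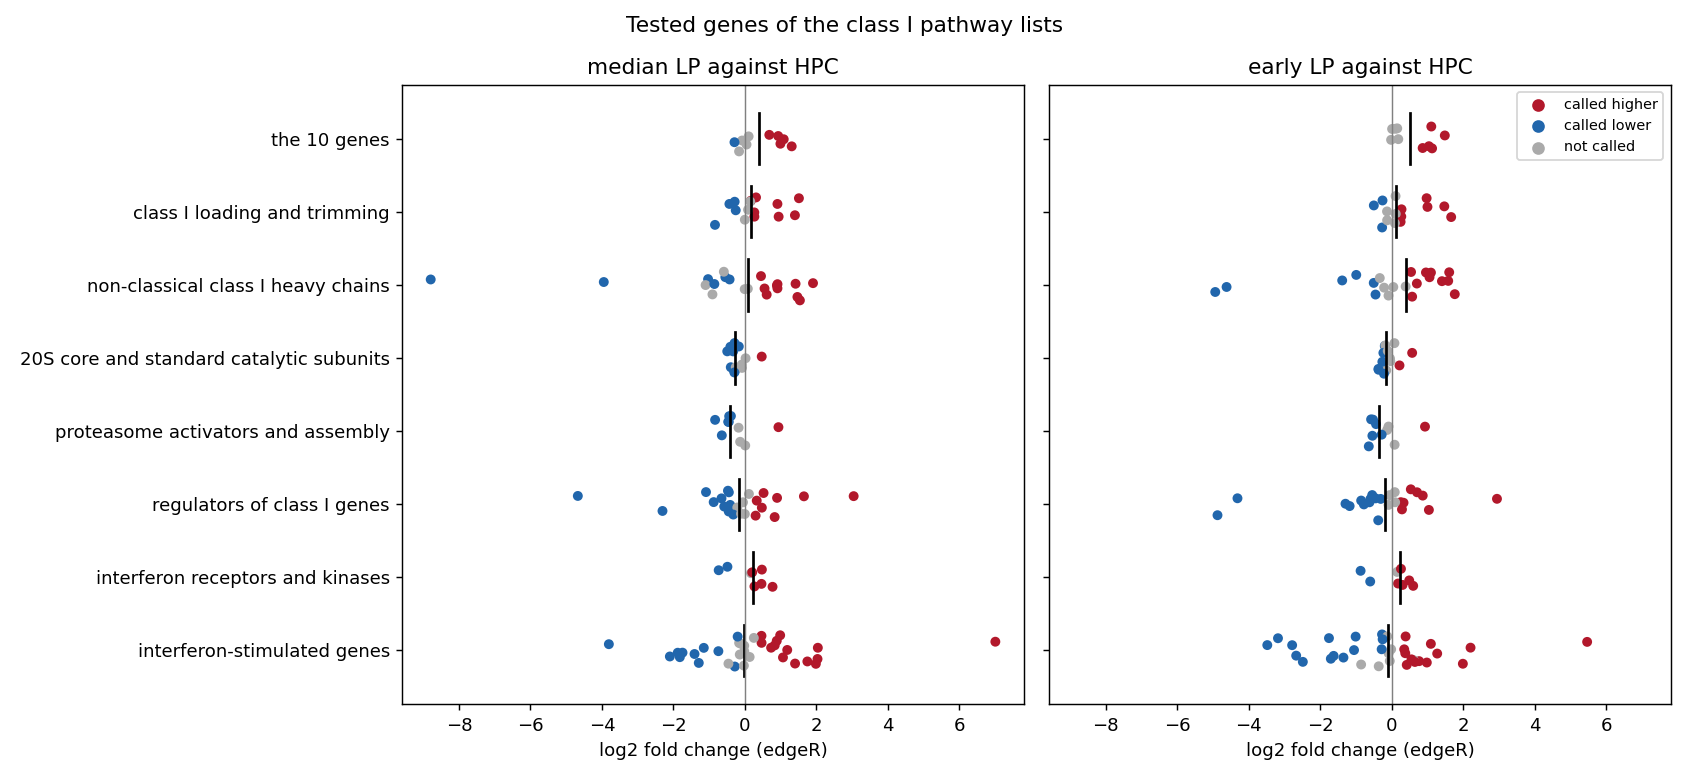
Log2 fold change from edgeR (horizontal axis) of each tested gene in the 8 lists, for median LP against HPC on the left and early LP against HPC on the right, with points coloured by call and a black line at the list's median. The 10 genes have medians of 0.39 and 0.52, the 20S core -0.29 and -0.17, and the interferon-stimulated genes spread to both sides. The leftmost point on the left is H2-T3, at 0 in all median LP libraries, whose plotted value depends on the prior count of the fit.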

How the data were processed

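RNA was sequenced in 9 libraries, 3 per group, and groups were taken from the labels. Per the labels' protocols, total RNA was isolated with Trizol and made into libraries with an Illumina TruSeq kit. The submitters' processing notes name TopHat2 2.0.6 and mm10. The quantifier, its annotation release and whether it used strand are not given in the sources. Per the file headers, the authors deposited FPKM, estimated counts and length per transcript. The deposited estimated counts were multiples of 0.867 to 1.23, which shows that they were scaled before deposit. Division by that step gave whole fragments for 90.0 to 91.6% of low values within a tolerance of 0.05.

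The 21388 transcripts were summed to 16537 genes, and counts were rounded. edgeR 4.0.16 (R 4.3.3, quasi-likelihood test, TMM scaling, filterByExpr) was fitted to all 9 libraries over 12837 genes, with two-sided tests and calls at an adjusted p (Benjamini-Hochberg) under 0.05. It left out 3700 genes, none of them among the 10. The fit's biological coefficient of variation was 9.81%. CPM of single genes were taken after TMM scaling, and the sums of cell type markers without it. Changes are on the log2 scale in the direction each comparison names, with SE from the F statistic. The fit was checked on simulated data. Ratios used FPKM per library and exact permutation tests. Alternatives were DESeq2 1.42.0, limma 3.58.1 on log2(FPKM + 1) and log2(FPKM + 0.1) of the deposited FPKM, RLE and upper quartile scaling, no filter, recovered fragments, only the 2 groups compared, a replicate block, a length slope covariate, leaving out each library, and, added after seeing the data, H2-D1 summed with H2-L. Promoter windows of 250 bases before the start came from RefSeq (GRCm38.p6).

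The members, the other gene lists and the motifs were chosen with earlier results of these data known. All members were named. Of each other list, up to 4 genes with the smallest adjusted p in a comparison were named. Genes named otherwise are marked. One gene that this rule named is not reported here. Intervals cover the spread between libraries.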

Additional observations from a re-analysis of the deposited data

Results flagged for a closer look

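In 3 interferon-stimulated genes the change against HPC differed between the PML-RAR phases by edgeR's test of median LP against early LP. Cxcl10, a chemokine that draws T cells, had 115, 73.0 and 50.3 CPM in median LP and 26.5, 27.1 and 28.1 CPM in early LP, beside 0.713, 0.377 and 0.741 CPM in HPC, and its log2 change between the phases was 1.54 (adjusted p = 0.005). Median LP replicate 1 was the highest library, and no median LP library overlapped early LP. Rsad2, the antiviral protein viperin, had 1.12, 1.63 and 1.27 CPM in median LP, 0.348, 0.251 and 0.0833 CPM in early LP, and 0.587, 0.544 and 0.624 CPM in HPC. Its log2 change between the phases was 2.54 (adjusted p = 0.0044), with median LP above HPC and early LP below it. Ifit1, another antiviral RNA-binding protein, had 3.35, 3.60 and 3.60 CPM in median LP, 2.31, 1.71 and 1.67 CPM in early LP, and 0.923, 0.837 and 0.897 CPM in HPC, and a log2 change between the phases of 0.89 (adjusted p = 0.024). The Ifit1 call was lost with the replicate block (0.90, adjusted p = 0.0635) and without median LP replicate 1, 2 or 3 or early LP replicate 2 or 3 (0.80 to 0.93, adjusted p of 0.0623 to 0.12). None of the 10 class I and immunoproteasome genes was called between the phases. Groups of 3 libraries are too small for a test of single outlying libraries.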

How the results depend on the processing

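B2m, H2-D1, H2-K1, Tapbp and Nlrc5 were called higher against HPC in both PML-RAR groups under all 19 other settings (H2-D1 also when summed with H2-L, a setting added after seeing the data), and none of the 10 genes was called between the phases under any. Their log2 changes ranged in median LP from 0.60 for Tapbp to 1.34 for H2-D1, and in early LP from 0.78 for Tapbp to 1.52 for H2-D1. The count called lower in median LP against HPC was 2 with upper quartile scaling and with the length slope covariate, and 0 to 1 with a library left out. The count called higher in early LP against HPC was 5 to 8 with a library left out, 8 without HPC replicate 3. Estimates near 0 changed sign. Tap2 in median LP was -0.037 with upper quartile scaling and -0.00043 and -0.00037 with limma and pseudocounts of 1 and 0.1. Psmb10 in early LP was -0.063 with upper quartile scaling, -0.0093 and -0.0095 with limma, -0.087 with the length slope covariate and -0.057 to 0.10 with a library left out. With a library left out, Psmb9 in median LP was -0.15 to 0.042, Psmb8 in early LP -0.071 to 0.10, Psmb6 in early LP -0.18 to 0.067, and B2m between the phases -0.0026 to 0.090. The cause was not tested. The deviations of same-numbered libraries from their group means correlated across genes at r of -0.213 to 0.115. Such correlations cannot show whether the numbers pair the samples. With the replicate block 5 and 1 of the 10 genes were higher and lower in median LP, 5 and 0 in early LP, and Ifit1 between the phases was 0.90 (adjusted p = 0.0635). With deposited counts in place of FPKM, or a pseudocount of 1 FPKM, the log2 ratio of Psmb8 to Psmb5 differed from HPC by -0.63 and -0.63 in median LP and -0.59 and -0.58 in early LP, and that of Psmb9 to Psmb6 by 0.24 and 0.20 and by 0.21 and 0.21.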
